A study of Mus musculus with 17 samples.

Results

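The 10 genes described here, Tubb3, Dcx, Map2, Stmn2, Elavl3, Elavl4, Gap43, Syp, Snap25 and Neurod1, are widely used markers of young or mature neurons. The rule takes them by gene symbol and uses no measured value, and all 10 were found among the 18836 genes listed in at least 1 of 17 RNA-seq libraries. The libraries came from adult mouse neural retinal progenitor cells (mNRPCs), which the study isolated from the neural retina of adult C57BL/6 mice. It grew them on Matrigel in a defined medium with N2 and B27 (basic medium, BM). For this culture the medium also held basic fibroblast growth factor (bFGF) and CHIR99021. In 1 library the cells were sequenced on day 0. The paper describes day 0 in its results as cells cultured in BM and in its methods as before treatment. The other 16 hold 1 library of each treatment on each of days 1, 3, 5 and 7. The treatments were BM alone, BM with bFGF (group B), BM with CHIR99021 (group C) and BM with both (group BC). bFGF acts as a ligand of FGF receptors, and CHIR99021 blocks the kinase GSK-3, a negative regulator of Wnt signaling. Each treatment and day is a single library, and nothing in the labels says whether the libraries came from separate cultures. The p-values below therefore measure departures from the fitted terms and not the spread between cultures. The comparisons ask how withdrawing or keeping the 2 factors that maintained the progenitors went with the RNA of neuronal genes.

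A progenitor that becomes a neuron leaves the cell cycle, turns on proneural transcription factors and then builds a neuronal cytoskeleton, a growing axon and finally synapses. The markers follow this order. Neurod1 is a proneural transcription factor. Dcx, Tubb3, Stmn2 and Map2 encode microtubule proteins of migrating and extending neurons, Gap43 encodes a growth cone protein, Elavl3 and Elavl4 encode neuronal RNA-binding proteins, and Syp and Snap25 encode proteins of the synaptic vesicle and its release machinery. Several of them are also expressed outside neurons, and Tubb3 and Gap43 are known from cultured progenitor and glial cells.

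Upstream sequences of Dcx, Map2, Syp and Tubb3 are shown because the first 3 were lower with bFGF and Tubb3 was not, and that of Neurod1 is shown for its motif match. They were read from the RefSeq promoter table of mouse build GRCm38.p6 (the submitters' notes name mm10, the same assembly), which matched 7 of the 10 genes. Each is the stretch of the 250 bases before a RefSeq start that lies upstream of every annotated transcript of the gene, written 5′ to 3′ on the gene's strand, so it holds no exon. Capitals mark an E-box, CANNTG, the motif bound by proneural factors of the bHLH class.
Dcx, chrX:143933397-143933469, minus strand: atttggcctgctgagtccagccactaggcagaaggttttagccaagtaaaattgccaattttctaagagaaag
Map2, chr1:66175079-66175201, plus strand: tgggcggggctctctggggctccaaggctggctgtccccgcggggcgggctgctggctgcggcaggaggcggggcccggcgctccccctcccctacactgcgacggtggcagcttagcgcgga
Syp, chrX:7638330-7638470, plus strand: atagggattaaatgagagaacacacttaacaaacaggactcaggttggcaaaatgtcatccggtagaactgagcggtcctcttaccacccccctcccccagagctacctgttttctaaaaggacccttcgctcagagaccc
Tubb3, chr8:123411303-123411423, plus strand: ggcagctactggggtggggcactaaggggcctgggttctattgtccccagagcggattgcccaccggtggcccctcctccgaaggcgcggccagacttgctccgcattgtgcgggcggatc
Neurod1, chr2:79456752-79456886, minus strand: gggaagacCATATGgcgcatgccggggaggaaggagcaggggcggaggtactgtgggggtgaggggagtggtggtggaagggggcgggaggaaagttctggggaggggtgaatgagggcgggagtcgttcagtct

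The full windows of 250 bases differed widely in composition. GC content was 81.2% for Map2, 68.0% for Tubb3, 56.4% for Syp and 41.6% for the outer of the 2 Dcx windows, against a median of 52.0% over 27025 mouse promoters. Neither an E-box nor the LEF/TCF core CTTTGA (searched on both strands; the E-box reads the same on both) was present in the windows of Dcx, Map2, Syp and Tubb3. Elavl3 held 2 E-boxes, the Elavl4 windows between 0 and 3, and Neurod1 held 1. An E-box occurs in 66.0% of all promoter windows of this length and the LEF/TCF core in 14.0%, and a match or its absence is a description of these letters only.

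The files held little RNA of most neuronal markers. Total expected counts per library ran from 17571973 to 19428744, and 14820 to 15882 genes were listed in each. Expression is given in FPKM, the authors' reads scaled to transcript length and library total. The files list genes only from an FPKM of 0.01, and an absent gene was taken as 0. Of the 10 genes, 3 were listed in all 17 libraries (Tubb3, Gap43 and Map2), and only Tubb3 and Gap43 had a mean FPKM of at least 1 over the 16 libraries of days 1 to 7. In 7 genes every FPKM was under 1, and in 5 (Stmn2, Elavl3, Elavl4, Snap25 and Neurod1) every FPKM was under 0.1. The order by mean FPKM over the 17 libraries was Gap43 (7.26), Tubb3 (5.20), Map2 (0.93), Syp (0.29) and Dcx (0.074), followed by the 5 genes near the listing limit. The ranges of Gap43 and Tubb3 overlapped, from 1.98 to 18.94 FPKM and from 1.23 to 9.07 FPKM, so these neighbours in the order were not separated in every library.

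**Figure D1:**
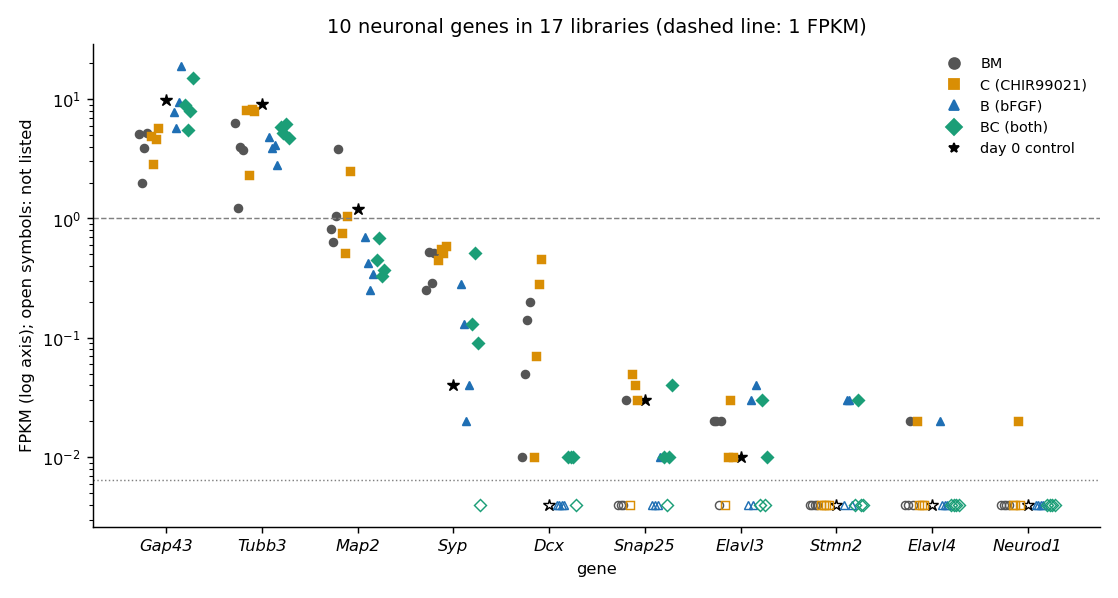
FPKM (log axis) of the 10 genes in the 17 libraries, 1 symbol per library, with colour and shape for the treatment and open symbols under the dotted line for libraries in which a gene was not listed. Only Gap43 and Tubb3 lie above the dashed line at 1 FPKM in every library, and Stmn2, Elavl3, Elavl4, Snap25 and Neurod1 stay under 0.1 FPKM.

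Broadly expressed relatives of the same families were far more abundant on the same per-length scale. Tubb5, the main β-tubulin of dividing cells, averaged 384 FPKM over the 17 libraries against 5.20 for Tubb3. Stmn1 averaged 87.2 FPKM against 0.0053 for Stmn2, Elavl1 12.3 against 0.0135 for Elavl3, Snap23, the SNAP protein of most cell types, 16.04 against 0.0147 for Snap25, and Sypl 18.2 against 0.289 for Syp. The neuronal paralogs stood at the low end of the tubulin, stathmin, ELAV, synaptophysin and SNAP families, and Tubb4a was the one β-tubulin listed with a lower mean (1.32 FPKM) than Tubb3.

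**Figure D2:**
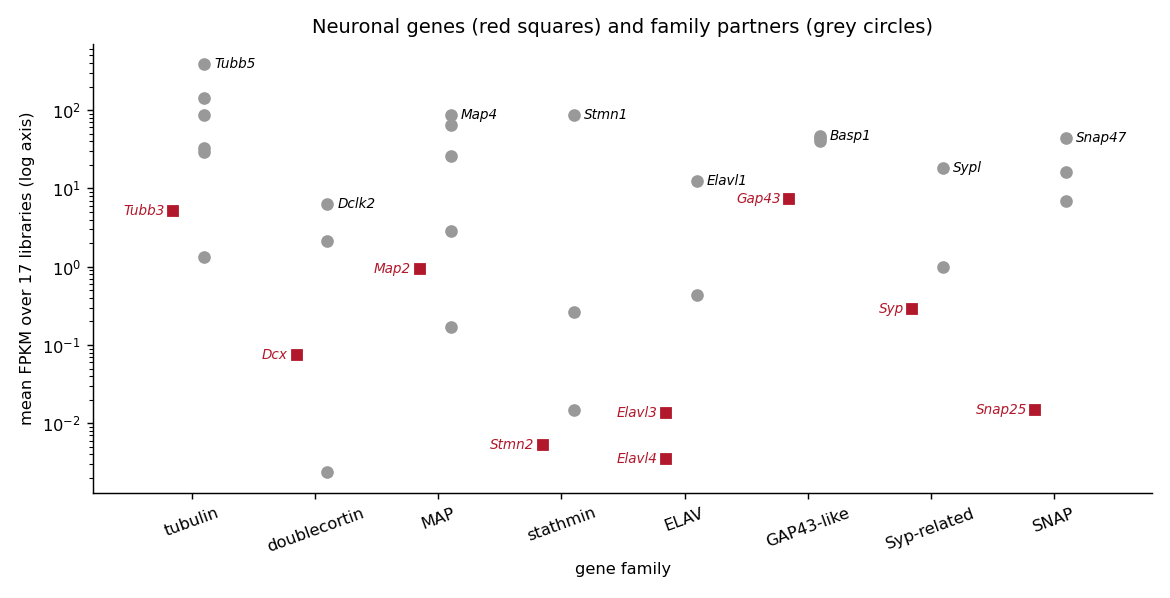
Mean FPKM over the 17 libraries (log axis) of each neuronal gene (red squares) beside related genes of its family (grey circles), with the most abundant relative named. Tubb5 at 384, Stmn1 at 87.2 and Elavl1 at 12.3 FPKM stand far above Tubb3, Stmn2, Elavl3 and Elavl4.

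The labelled cell type was checked against marker lists. Progenitor genes were present, with Pax6 between 10.7 and 207 FPKM, Six3 between 20.4 and 62.9, Sox2 between 27.7 and 89.9 and Nes between 5.73 and 20.9, while Lhx2 stayed at or under 2.35. None of 8 retinal ganglion cell markers and none of 8 rod markers reached a mean FPKM of 1, and the summed ganglion cell list did not exceed 0.55 FPKM in any library. Of 7 bipolar cell markers 2 reached it (Prkca and Isl1), with sums from 4.80 to 8.98 FPKM without bFGF and 4.18 to 9.22 with it. Of 7 amacrine cell markers 2 reached it as well, the transcription factor gene Tfap2a and the glycine transporter gene Slc6a9, while Gad1 and Chat stayed at or under 0.03 FPKM. Rbfox3, the gene of the NeuN protein, was listed in 4 of 17 libraries and reached 0.04 FPKM. Some marker lists moved with bFGF. The summed amacrine list ran from 60.7 to 118 FPKM without bFGF and from 23.7 to 63.5 with it, and on day 7 stood at 101 (BM), 85.9 (C), 26.7 (B) and 23.7 (BC), in the same direction as Map2, Dcx and Syp. The summed pericyte or fibroblast list (4 of 7 genes at a mean FPKM of at least 1) ran from 37.3 to 516 FPKM without bFGF and from 9.76 to 43.3 with it, led by Acta2 and Pdgfrb. The summed microglia or macrophage list ran from 1.73 to 4.15 without and from 2.18 to 81.0 with bFGF, nearly all of it Cd68. Of 8 Müller glia markers 3 reached a mean FPKM of 1, and 4 stayed under 1 FPKM in every library. The summed Müller glia list thus rests on few genes and does not show the list moving as a whole. It ran from 1456 to 2724 FPKM without bFGF and from 1667 to 4400 with it. The groups overlapped on day 1. On day 7 the sums were 1456 (BM), 1532 (C), 3508 (B) and 3858 (BC), in the same direction as Gap43. These values moved with the differences in Gap43, Map2, Dcx and Syp given below, and their part in them was not tested. In bulk RNA, fewer cells of a type and less RNA per cell cannot be told apart.

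Gap43, which encodes growth-associated protein 43 of the growth cone membrane (Entrez 14432, chr16:42248552-42340651 in RefSeq GRCm38.p6), was higher with bFGF on every day. On day 0 it stood at 9.76 FPKM. On day 1 BM stood at 5.14, C at 4.86, B at 7.79 and BC at 8.91. On day 3 the values were 1.98, 2.88, 5.69 and 5.46 in the same order.
Both libraries without bFGF were the lower ones on each of these days, and all 8 libraries stood under the day 0 level. On day 5 BM stood at 3.87, C at 4.67, B at 9.47 and BC at 7.99. On day 7 the values were 5.17, 5.69, 18.94 and 15.14. B and BC rose on day 7 above every other library, day 0 included, and the groups did not overlap within any day. Every count of Gap43 was a whole number to the 2 decimals given (46 to 449 reads), so the estimation assigned no Gap43 read in part.

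The fits used edgeR's quasi-likelihood test on rounded counts with Benjamini-Hochberg adjustment over all genes tested, a gene being called at an adjusted p under 0.05. Over days 1 to 7, in an additive model of bFGF, CHIR99021 and day with 8 libraries with and 8 without bFGF, Gap43 was higher with bFGF by 1.45 ± 0.18 on the log2 scale (SE), 2.73-fold (edgeR adjusted p = 8.8e-05), and in 8 of 8 same-day pairs. In that comparison 68.4% of the 11272 genes tested were called, so a call alone sets no gene apart. A second model had 8 means (bFGF status by day) and CHIR99021. By day, its difference was 0.82 ± 0.18 on day 1 (edgeR adjusted p = 0.018) and 1.29 ± 0.21 on day 3 (adjusted p = 3.0e-04). It was 1.48 ± 0.19 on day 5 (adjusted p = 1.5e-05) and 2.19 ± 0.18 on day 7 (adjusted p = 3.0e-07). These are log2 fold changes of 2 libraries against 2. Each SE given for an edgeR fit is the absolute log2 fold change over the square root of the test's F. The spread behind it comes from all 16 libraries of the fit. The call on day 1 was lost whenever any 1 of the 4 libraries of that day was left out, with log2 fold changes of 0.69 to 0.89 and adjusted p of 0.066 to 0.21. Of all genes, 10.7% were called on day 1, 50.4% on day 3, 75.8% on day 5 and 78.4% on day 7. The change of the bFGF difference with day was past the threshold (test of bFGF by day, edgeR adjusted p = 0.0031), as it was for 76.3% of genes. That test has no direction, so the widening is a description of the 4 values. From day 1 to day 7, Gap43 rose with bFGF by 1.47 ± 0.17 on the log2 scale (2.76-fold, adjusted p = 8.1e-06, background 75.3% called), while without bFGF the difference was 0.09 ± 0.19 (adjusted p = 0.68, background 63.8% called).

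**Figure D3:**
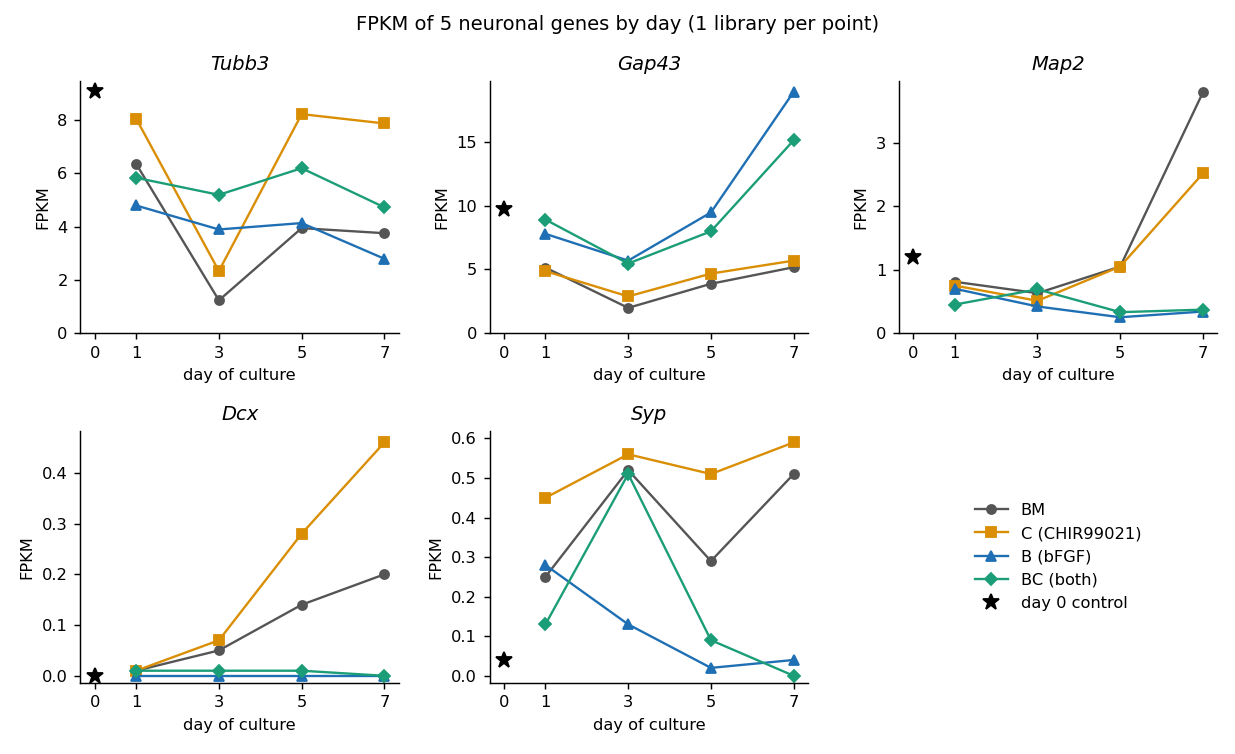
FPKM by day of culture for Tubb3, Gap43, Map2, Dcx and Syp, 1 library per point, with lines joining the days of a treatment and a star for the day 0 control. Gap43 separates upward in B and BC, Map2, Dcx and Syp end higher in BM and C, and Tubb3 dips to 1.23 FPKM in BM on day 3.

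Map2, which encodes the microtubule-associated protein 2 of neuronal dendrites (Entrez 17756, chr1:66175202-66442583), moved the other way, late in the time course. On day 0 it was 1.20 FPKM. On day 1 BM had 0.81, C 0.75, B 0.70 and BC 0.45, and on day 3 the values were 0.63, 0.51, 0.42 and 0.69 in that order.
The treatments overlapped on day 3, where BC was the highest. On day 5 BM and C both had 1.05, B 0.25 and BC 0.33, and on day 7 BM reached 3.80 and C 2.52, while B had 0.34 and BC 0.37. The day 7 rise in BM and C took Map2 above its day 0 level, and B and BC stayed under it from day 1 on. The day 7 values rest on 462 and 316 reads in BM and C and on 36 and 37 in B and BC.

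With a mean of 0.92 FPKM over the 16 libraries Map2 fell just short of the limit of 1 for the test, as did Dcx and Syp by more, so these 3 are given from the same fits with no limit on low values (18700 genes). Over days 1 to 7 Map2 was lower with bFGF, a log2 fold change of -1.17 ± 0.35 (edgeR adjusted p = 0.012), and lower in 7 of 8 pairs. Without the limit 46.5% of genes were called. The difference was -0.42 ± 0.26 on day 1 (adjusted p = 0.46), 0.07 ± 0.26 on day 3 (adjusted p = 0.94), -1.60 ± 0.28 on day 5 (adjusted p = 7.5e-05) and -2.83 ± 0.26 on day 7 (adjusted p = 2.8e-08, 7.11-fold lower). The day 5 call was lost with quantile normalization in limma (adjusted p = 0.096). The change with day passed the threshold (adjusted p = 1.4e-05). From day 1 to day 7 Map2 rose without bFGF by 2.03 ± 0.23 (log2 fold change, 4.09-fold, adjusted p = 1.0e-06), and with bFGF the difference was -0.38 ± 0.29 (adjusted p = 0.33), or -0.73 and called with no TMM (adjusted p = 0.046). Backgrounds without the limit were 6.04% called on day 1, 31.7% on day 3, 51.2% on day 5, 53.0% on day 7, 41.6% for day 7 against day 1 without bFGF, 49.4% with bFGF and 48.6% for the change with day.

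**Figure D4:**
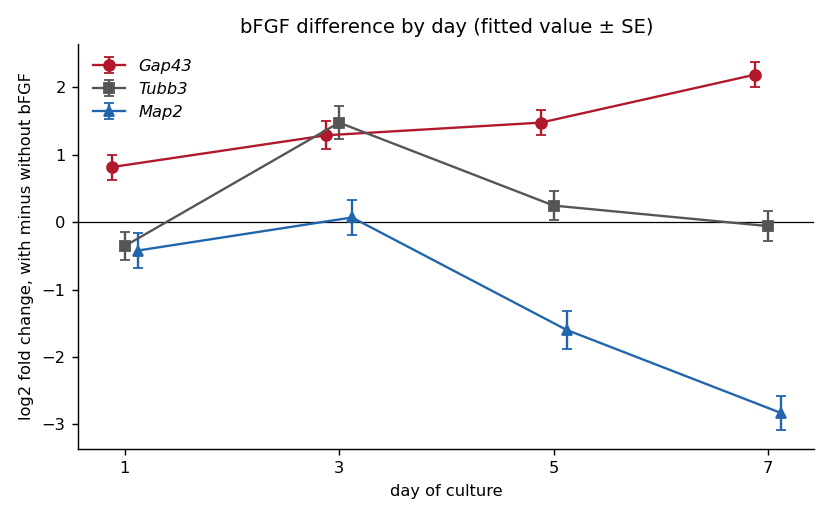
Fitted log2 fold change with minus without bFGF (2 libraries against 2) on each day for Gap43, Tubb3 and Map2. Bars are ± SE, derived from the test statistic of the fit to all 16 libraries. Gap43 climbs from 0.82 to 2.19, Map2 falls to -2.83 on day 7, and Tubb3 is far from 0 on day 3 alone, at 1.48.

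Dcx, which encodes doublecortin, the microtubule protein of migrating neuroblasts (Entrez 13193, chrX:143855842-143933396), was listed in all 8 libraries without bFGF and in 3 of 8 with it. It was not listed on day 0. In BM it stood at 0.01, 0.05, 0.14 and 0.20 FPKM on days 1, 3, 5 and 7, and in C at 0.01, 0.07, 0.28 and 0.46. In BC it was 0.01 on days 1, 3 and 5 and not listed on day 7, and in B it was listed on no day.
Dcx was thus higher on each later day in BM and in C and stayed at the listing limit in B and BC. Levels were low throughout. The highest, 0.46 FPKM in C on day 7, rests on 78.27 expected reads, and the sums were 203 reads without bFGF and 4.84 with it, a 41.6-fold ratio relative to the library totals (95% counting interval 16.95 to 125). On day 7, with 112 reads in BM and C and none in B and BC, the lower 95% counting bound of the ratio was 29.3-fold, and the ratio was 36.6-fold with the absent reads set to 3 over the group. The log2 fold change of the additive fit was -4.49 ± 0.60 (edgeR adjusted p = 1.0e-04), and the calls held on day 3 (adjusted p = 0.0077), day 5 (adjusted p = 4.1e-05) and day 7 (adjusted p = 1.6e-06) but not on day 1 (adjusted p = 0.88). With limma the day 3 call was lost at pseudocounts 1 and 0.1 (adjusted p = 0.43 and 0.061) and with quantile normalization (adjusted p = 0.34). Without bFGF Dcx rose from day 1 to day 7 by 5.51 ± 0.67 on the log2 scale (adjusted p = 3.2e-06), from 2.03 reads to 112 over the 2 libraries of each day. The change of the bFGF difference with day was not past the threshold in edgeR (adjusted p = 0.087). It was past it with limma at pseudocounts 1 and 0.1 (adjusted p = 0.017 and 0.0017) and with quantile normalization (adjusted p = 0.019).

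Syp, which encodes the synaptic vesicle protein synaptophysin (Entrez 20977, chrX:7638580-7653256), was at 0.04 FPKM on day 0. In BM it was 0.25, 0.52, 0.29 and 0.51 FPKM on days 1, 3, 5 and 7, and in C it was 0.45, 0.56, 0.51 and 0.59. In B it was 0.28, 0.13, 0.02 and 0.04, and in BC it was 0.13, 0.51 and 0.09 on days 1, 3 and 5 and not listed on day 7.
The 2 sets overlapped on day 1, where B was above BM, and lay apart on the other days, by 0.01 FPKM on day 3. Syp was lower with bFGF over days 1 to 7 (log2 fold change -1.55 ± 0.46, edgeR adjusted p = 0.013). The difference was -0.67 ± 0.61 on day 1 (adjusted p = 0.68), -0.71 ± 0.54 on day 3 (adjusted p = 0.39), -2.31 ± 0.77 on day 5 (adjusted p = 0.017) and -3.94 ± 0.89 on day 7 (adjusted p = 8.8e-04). The day 7 value was -7.74 without the B library of that day and -2.77 without its BC library, called in both. On day 7 there were 50 reads without and 2 with bFGF, a 24.5-fold ratio (95% counting interval 6.43 to 208). That ratio is relative to the library totals, without the TMM scaling of the fitted values. The day 5 call was lost when the C library (-2.06, adjusted p = 0.097) or the B library (-1.84, adjusted p = 0.12) of that day was left out, and with quantile normalization in limma. From day 1 to day 7 Syp fell with bFGF (log2 fold change -2.74 ± 1.02, adjusted p = 0.033), a call lost without the B library of day 1 (-1.75, adjusted p = 0.29) or the BC library of day 7 (-1.55, adjusted p = 0.31) and with limma on log2(FPKM + 1). Without bFGF the difference was 0.53 ± 0.53 (adjusted p = 0.50). The change with day had an adjusted p of 0.061, and of 0.027, 0.020 and 0.042 without BC day 1, B day 3 or B day 7, of 0.024 with no TMM, and of up to 0.37 over the other alternatives.

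Tubb3, which encodes the neuronal β-tubulin class III (Entrez 22152, chr8:123411553-123422015), had no uniform direction with bFGF. It stood at 9.07 FPKM on day 0, above all 16 later libraries. On day 1 BM had 6.35, C 8.05, B 4.79 and BC 5.83. On day 3 the values were 1.23, 2.33, 3.89 and 5.19 in the same order.
Both libraries with bFGF were below both without it on day 1 and above both on day 3. On day 5 BM had 3.94, C 8.22, B 4.13 and BC 6.19, and on day 7 the values were 3.75, 7.87, 2.79 and 4.72. From day 5 on, C was the highest and the treatments with and without bFGF overlapped. Every Tubb3 count was fractional (38.31 to 308.8 expected reads), so the estimation assigned part of its reads in shares, and which genes shared them was not tested.

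Over days 1 to 7 the bFGF difference in Tubb3 was 0.31 ± 0.23 (log2 fold change, edgeR adjusted p = 0.24). On FPKM as deposited, Tubb3 was higher with bFGF in 3 of 8 pairs and lower in 5. By day the difference was -0.35 ± 0.21 on day 1 (adjusted p = 0.31), 1.48 ± 0.24 on day 3 (adjusted p = 3.6e-04, 2.79-fold higher), 0.25 ± 0.21 on day 5 (adjusted p = 0.31) and -0.06 ± 0.22 on day 7 (adjusted p = 0.82). The change with day passed the threshold (adjusted p = 0.0015). Several of these values depend on the scaling. With quantile normalization in limma Tubb3 was called over days 1 to 7 (0.43, adjusted p = 0.040) and on day 5 (0.51, adjusted p = 0.026), while with no TMM the day 5 value was -0.19 (adjusted p = 0.41). TMM factors, which center the typical gene, ran from 1.12 to 1.13 in BM and C and from 0.754 to 0.793 in B and BC on day 7. Without TMM, which moved the median of all genes by -0.54 on day 7, Tubb3 had a log2 fold change of -0.60 (adjusted p = 0.021), and with limma on log2(FPKM + 1) one of -0.48 (adjusted p = 0.015), whereas quantile normalization gave 0.32 (adjusted p = 0.14). From day 1 to day 7 the difference in Tubb3 was -0.39 ± 0.21 without bFGF (adjusted p = 0.12), and -0.69 and called (adjusted p = 0.046) when the C library of day 7 was left out. With bFGF it was -0.10 ± 0.22 (adjusted p = 0.70), and it was a called fall with no TMM (-0.53, adjusted p = 0.037) and with limma at either pseudocount (-0.43 and -0.53, adjusted p = 0.026 for both). Gap43, Map2, Dcx and Syp kept their directions over days 1 to 7 without TMM.

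CHIR99021 went with higher Tubb3. The library with CHIR99021 had the higher FPKM in 8 of 8 same-day pairs, from 3.75 to 7.87 FPKM between BM and C on day 7 and from 2.79 to 4.72 between B and BC. In the additive model the log2 fold change was 0.67 ± 0.23 (edgeR adjusted p = 0.28), where 0.337% of genes were called (0.118% without the limit on low values). That model counts the differing bFGF effects of the days as spread. In the model with 8 means, whose use for CHIR99021 was chosen after the data were seen, the same difference was 0.67 ± 0.11, 1.59-fold (adjusted p = 0.0024), with 19.5% of genes called (11.4% without the limit). It was past the threshold in every alternative run for that model. Dcx was higher with CHIR99021 in 6 of 8 pairs and equal in 2 (log2 fold change 1.09 ± 0.33, adjusted p = 0.045). That call was lost with DESeq2 and with limma and in 12 of 16 fits that left out 1 library. The pairs with bFGF were at the listing limit. B held 0 Dcx reads on each day, and BC held 1.0, 2.04 and 1.8 expected reads on days 1, 3 and 5. Gap43 showed no uniform direction with CHIR99021 (0.03 ± 0.09 in the model with 8 means, adjusted p = 0.88), nor did Map2 (-0.18 ± 0.13, adjusted p = 0.50), and Syp was at 0.47 ± 0.31 (adjusted p = 0.43). An interaction of bFGF and CHIR99021 was called in 0.00887% of genes and in none of the 10 (edgeR adjusted p = 1 for Tubb3 and Gap43).

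**Figure D5:**
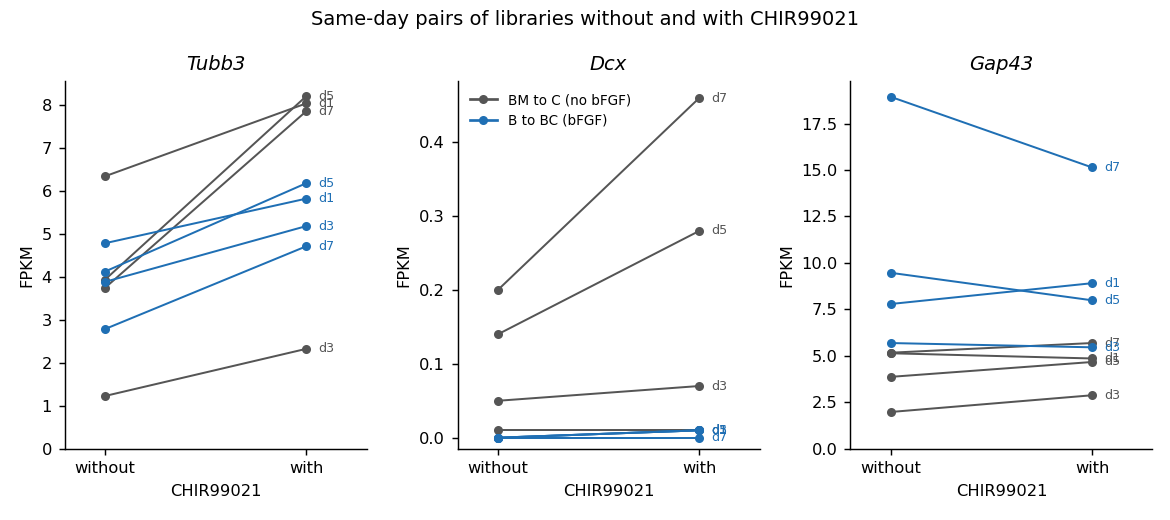
FPKM in same-day pairs of libraries without and with CHIR99021 for Tubb3, Dcx and Gap43, with grey lines for BM to C, blue lines for B to BC and the day (d) beside each line. All 8 Tubb3 lines rise, Dcx rises in the grey pairs of days 3 to 7, and Gap43 lines run both ways.

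The remaining 5 genes were at or near the listing limit. Elavl3, a neuronal RNA-binding protein gene, was listed in 11 of 17 libraries at no more than 0.04 FPKM, with 21.26 expected reads in all. Snap25, a SNARE protein gene of neurotransmitter release, reached 0.05 FPKM and 10.01 reads in all. Stmn2, which encodes a tubulin-binding protein of growing axons, was listed at 0.03 FPKM on day 3 in B and BC and on day 5 in B, 1 read each. Elavl4 was listed in 3 libraries at 0.02 FPKM, 1 read each. Neurod1 was listed in C on day 5 alone, at 0.02 FPKM and 1 read. None of the 5 was called in any bFGF or CHIR99021 comparison, and differences among these libraries were not detectable at this depth.

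Against day 0, the 2 genes with a mean of 1 FPKM or more over the 17 libraries lay at least 2 times apart on the log2(FPKM + 1) scale in 2 of the day 7 comparisons, Tubb3 lower in BM (3.75 against 9.07 FPKM) and in B (2.79). With the 17 libraries quantile-normalized, the B difference in Tubb3 was -0.95 on the log2 scale, short of 2 times, and Gap43 lay at least 2 times under day 0 in BM (-1.15) and C (-1.02) and at least 2 times above it in B (1.07). Among all 11258 such genes the share at least 2 times apart from day 0 on day 7 was 34.1% for BM, 35.4% for C, 35.1% for B and 37.8% for BC. Each day 0 comparison sets 1 library against 1 and shares the day 0 library, so no test was made. On the log2(FPKM + 1) scale Map2 on day 7 was at least 2 times apart from day 0 in BM alone, at 3.80 against 1.20 FPKM. C stood at 2.52, B at 0.34 and BC at 0.37 FPKM, where the added 1 shrinks differences between low values.

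Other genes of the neuronal program moved in both directions with bFGF in the additive fit, where 68.4% of all genes were called. Of 31 relatives of the 10 genes, 23 were tested, of which 8 were higher, 9 lower and 6 not called (median log2 fold change 0.08, against -0.002 over all genes). Mapt, the gene of the axonal microtubule protein tau, was lower with bFGF (log2 fold change -2.01 ± 0.26), and stood on day 7 at 6.84 FPKM (BM), 7.82 (C), 0.56 (B) and 0.62 (BC). Synpr, which encodes the vesicle protein synaptoporin, was also lower (-1.89 ± 0.36). Synpo, which encodes the actin-associated synaptopodin and is no synaptophysin, had a log2 fold change of -1.70 ± 0.16. Marcksl1 (-1.02), Snap47 (-0.90) and Marcks (-0.69) were also lower, while Tubb5 (1.24 ± 0.23), the microtubule destabilizer Stmn1 (0.81), Elavl1 (0.69) and Tubb4b (0.67) were higher. The Tubb4b call was lost with no TMM scaling and with limma. With no TMM scaling the split of the relatives was 3 higher and 12 lower.

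Of 44 further neuronal cytoskeleton, adhesion and RNA-binding genes, 14 were tested, 7 were higher with bFGF and 3 lower (median log2 fold change 0.18). Nrcam, a neuronal cell adhesion gene, was higher by 2.97 ± 0.40, with Celf4 at 1.18 and Uchl1 at 0.80, and Ank2 (-1.88 ± 0.30), Ncam1 (-0.98) and Nova1 (-0.59) were lower, though Nova1 lost its call without day 1 and turned sign with quantile normalization. Of 43 genes of the synaptic vesicle and its release, 14 were tested, 9 were higher and 3 lower (median 0.58), among them Rab3b at 2.43 ± 0.43, the calcium sensor Syt1 at 1.58 and Syn1 at 1.37, against Syt13 at -1.32, Vamp1 at -1.05 and Syt11 at -0.76. With no TMM scaling the splits were 3 higher and 5 lower for the cytoskeleton list and 7 higher and 3 lower for the vesicle list.

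Only 3 of 36 proneural and neuronal transcription factor genes passed the limit of a mean FPKM of 1. Sox11 (1.97 ± 0.40) and Isl1 (0.96) were higher with bFGF and Sox4 (-0.61) was lower. Of 13 genes known to repress neuronal genes, 9 were tested, 6 were higher and 2 lower (median 0.46). Id1, an inhibitor of proneural bHLH factors, was higher by 1.41 ± 0.18, Id2 by 1.01 and the splicing repressor Ptbp1 by 0.67. The Id2 call was lost in 3 alternative settings, no TMM scaling among them. Id3 (-0.90) and the Notch effector Hes1 (-0.89) were lower. Of 5 neuronal splicing factor genes 3 were tested, and Khdrbs2 was higher by 2.87 ± 0.39. With no TMM scaling the split was 3 higher and 3 lower for the repressors.

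The genes most alike in their pattern, by Pearson's r of log2(FPKM + 1) over the 17 libraries among genes whose mean FPKM reached 1, were Fkbp1a (r = 0.958), Pomp (0.953) and Timp1 (0.945) for Gap43 and Scamp3 (0.854), Cfap36 (0.796) and Fasn (0.772) for Tubb3. Between the markers, r was 0.74 for Dcx and Map2, 0.61 for Dcx and Syp, 0.55 for Map2 and Syp, -0.79 for Gap43 and Syp and 0.28 for Tubb3 and Gap43. These describe 17 libraries that share treatments and days, and Dcx and Syp were not listed in some of them.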

How the data were processed

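RNA-seq was measured in 17 libraries of mNRPCs, 1 per treatment and day. The authors purified poly-A RNA extracted with TRIzol, sequenced on the BGISEQ-500 platform and mapped reads with Bowtie 2. The paper names eXpress for expression values and the submitters' processing notes name RSEM and mm10, and the versions are not given in the sources used here. For each gene the authors deposited an expected count, an estimate that splits reads shared between genes, and an FPKM, scaled by transcript length and library total and listed from 0.01. The transcript length was also deposited and was copied only.

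Groups came from the sample titles. Expected counts were rounded and fitted with edgeR 4.0.16 in R 4.3.3 (TMM, glmQLFit, glmQLFTest, Benjamini-Hochberg, threshold 0.05) where a gene's mean FPKM was 1 or more, and again with no limit. The additive model had bFGF, CHIR99021 and day as terms (biological coefficient of variation 24.7%), a further model added their interaction, and the model with 8 means had bFGF status by day plus CHIR99021 (10.0%). DESeq2 1.42.0, limma 3.58.1 on log2(FPKM + 1), log2(FPKM + 0.1) and quantile-normalized values, a limit of 5 and leaving out day 1 or each library were alternatives, and for differences from day 0 a pseudocount of 0.1 and quantile normalization. The fits were also run on simulated counts in which few genes changed with bFGF, by the same amount on every day. Those runs do not test the fits where most genes change or where the scaling matters. Intervals on pooled reads are exact at 95% and cover counting error only. Python 3.11.15 with pandas 2.3.3, numpy 2.4.6, scipy 1.17.1 and matplotlib 3.10.9 handled tables and plots.

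The 10 genes and the other gene lists were chosen with earlier results of these data known. All 10 genes are named. Of each further list, genes past the threshold with the largest log2 fold changes are named, up to 10 for the relatives and up to 3 in each direction for the others, with 3 genes most alike per marker whose mean FPKM reached 1. Columns of functional annotation were not used. No library pair held identical counts, and the labels give no batch.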

Additional observations from a re-analysis of the deposited data

Results flagged for a closer look

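For 3 genes the bFGF difference itself changed between days 1, 3, 5 and 7, by the test of bFGF by day in the model with 8 means (edgeR adjusted p). In Gap43 the adjusted p was 0.0031, with the difference widening from 0.82 on day 1 to 2.19 on day 7 on the log2 scale. In Map2 it was 1.4e-05, with no limit on low values, and the difference went from -0.42 to -2.83. In Tubb3 it was 0.0015, and the difference was past the threshold on day 3 alone, at 1.48. Of all genes tested, 76.3% (48.6% without the limit) were past the same threshold.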

How the results depend on the processing

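The 55 results of the 5 genes with values had 1155 values over all their alternatives. Of these, 1071 kept their side of the threshold and, where the result has one, their direction. A further 30 lost the call, 17 gained it and 37 turned sign. The test of bFGF by day has no direction, so only its side of the threshold was compared. The numbers of the 10 genes called depend first on the limit on low values. With no limit, 4 were called for bFGF over days 1 to 7 (1 with it), 4 on day 5 and 4 on day 7 (1 each with it), 2 for day 7 against day 1 without bFGF (0 with it) and 2 with bFGF (1 with it), where 46.5%, 51.2%, 53.0%, 41.6% and 49.4% of all genes were called. With a limit of 5, which leaves 1 gene tested, 1 was called on day 3 and 1 in the test of bFGF by day (2 each before). Quantile normalization gave 2 of 2 for bFGF over days 1 to 7 (67.4% of all genes) and 2 of 2 on day 5 (72.0%). With no TMM, and with limma at either pseudocount, 2 of 2 were called on day 7 (80.4% to 80.9% of all genes) and 2 of 2 for day 7 against day 1 with bFGF (77.4% to 78.2%). For CHIR99021 the model with 8 means called 1, and 2 with no limit (0 in the additive model). Leaving out 1 library gave 0 to 1 on day 1 (without any library of that day, 0) and 0 to 1 for day 7 against day 1 without bFGF (1 without C day 7).

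Values that turned sign were all short of the threshold in both forms. For Tubb3 they were bFGF on day 5 (-0.19 with no TMM, -0.15 and -0.17 with limma at pseudocounts 1 and 0.1), bFGF on day 7 (0.32 with quantile normalization, and between -0.28 and 0.19 without 1 library), day 7 against day 1 with bFGF (0.17 with quantile normalization, -0.35 to 0.10 without 1 library) and the interaction of bFGF and CHIR99021 (-0.65 to 0.0092 without 1 library). For Gap43 they were CHIR99021 (-0.045 to 0.15 without 1 library, and -0.025 to 0.077 in the model with 8 means) and day 7 against day 1 without bFGF (-0.011 with quantile normalization, -0.0072 with no limit, -0.0088 to 0.13 without 1 library). With no limit, they were Dcx in the interaction (-0.11, -0.33 and -0.077 with limma), Map2 for bFGF on day 3 (-0.018 and -0.058 with limma, -0.027 with no TMM, -0.44 to 0.50 without 1 library) and for CHIR99021 (-0.38 to 0.13 without 1 library), and Syp in the interaction (0.94 without day 1) and on day 1 (-1.66 to 0.089 without 1 library). The cause was not tested.

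Over all genes, CHIR99021 calls in the additive model numbered 38, against 281 with DESeq2, 72 with quantile normalization, 22 with no limit, 24 without day 1 and 2199 in the model with 8 means. The interaction was called for 1 gene (178 at an unadjusted p under 0.05), 5 with DESeq2. With no TMM the bFGF calls split into 2245 higher and 5702 lower, against 3896 and 3817, and the median gene moved by -0.29. No paired analysis by replicate number was possible because each treatment and day has 1 library and the labels carry no such numbers, while the day was a term of every fit.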
